A study of Mus musculus with 4 samples.

Results

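Decitabine-treated cells of the KO line were compared with untreated cells of the same line, over the promoters and CpG islands of the mouse genome. A gene entered the comparison when at least 3 of its probes were kept on both KO arrays, that is when their input signal exceeded background clearly and no non-uniformity mark was set. This left 337309 of 520554 probes (64.8%) and 18365 of the 19955 gene names on the array, with a median of 18 kept probes per gene. The KO cells are mouse leukaemic cells grown in medium with serum, interleukin-6, interleukin-3 and stem cell factor. Their source names call them an Mll5 knockout, while their genotype field reads HOXA9 KO, so the labels disagree on the missing gene. Decitabine was given at 20 nM once every 24 h over 3 days to the treated cells and not to the untreated ones, and both were harvested at 72 h. WT cells given the same treatment or none were measured on another 2 arrays and serve only as values set beside the KO cells. No probe carries the name Mll5, so the loss of that gene could not be checked. Of 39 probes named Hoxa9, 28 were kept on both KO arrays, so input DNA was measured there, and whether a part of the gene is missing was not tested. Methylation at cell type markers does not show their expression, so the cell type was not checked.

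Methylated DNA was pulled down with an antibody to 5-methylcytosine (MeDIP), labelled with Cy3 and hybridised together with Cy5-labelled input DNA. Methylation of cytosines in CpG dinucleotides is copied to the new DNA strand after replication by Dnmt1 with its partner Uhrf1, and is set anew by Dnmt3a and Dnmt3b with the cofactor Dnmt3l. Decitabine is a cytidine analogue that is phosphorylated by Dck, enters DNA in dividing cells and traps these enzymes, so that methylation is diluted over divisions. It is used in myeloid malignancies. A level is the log2 ratio of MeDIP over input relative to the median of all probes on the array. A difference is the decitabine level minus the untreated level, and the error after ± is the SD over the probes of a gene. There was 1 array in each group, so no difference has a replicate check and none was tested.

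Probes of genes with the largest differences, the largest gains in bright probes and the longest runs of newly bright probes are printed first, since the results turn on base composition. A probe is called bright when its MeDIP signal is marked as well above background. For each gene the probe with the strongest processed (dye-normalized) MeDIP signal with decitabine is shown, as the plus strand of mm9 read 5′ to 3′, with CpG dinucleotides in capitals.
Ncoa3: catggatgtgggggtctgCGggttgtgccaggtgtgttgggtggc
Ccdc64: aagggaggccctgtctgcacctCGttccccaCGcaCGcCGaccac
Traf4: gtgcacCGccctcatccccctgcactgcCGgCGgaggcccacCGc
Dld: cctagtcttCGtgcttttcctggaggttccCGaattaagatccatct
Rtl1: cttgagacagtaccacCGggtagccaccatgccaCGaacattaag
Plec1: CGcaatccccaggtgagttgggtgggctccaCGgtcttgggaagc
Asb7: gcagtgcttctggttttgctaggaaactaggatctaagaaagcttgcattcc
Aqp7: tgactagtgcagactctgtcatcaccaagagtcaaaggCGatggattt
Cpsf3l: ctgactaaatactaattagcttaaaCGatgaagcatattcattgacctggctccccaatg
Car11: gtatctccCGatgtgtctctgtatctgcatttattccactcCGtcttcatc
The Ncoa3 probe (chr2:165818646-165818690, intronic, 531 bp downstream of the nearest annotated start) has a single CpG but lies in a 500 bp window with 50 CpG. It was the brightest of these, at a background-subtracted signal of 63934 untreated and 53287 with decitabine. The Ccdc64 probe (chr5:116112644-116112688, intronic) and the Traf4 probe (chr11:77978743-77978787, intronic, 253 bp downstream of a start) hold 4 CpG each. Their signals were 266 and 208 untreated, against 570 and 476 with decitabine. The Dld probe (chr12:32034116-32034162, intronic) had 269 and 566. The Rtl1 probe (chr12:110838050-110838094) and the Plec1 probe (chr15:76024315-76024359), both intronic with 2 CpG each, differed less, with 476 and 534 for Rtl1 and 18360 and 18297 for Plec1. The Asb7 probe (chr7:73833571-73833622, intronic) has no CpG of its own, in a window with 9, and measured 223 and 313. The Aqp7 probe (chr4:40994006-40994053, intronic) went from 150, below the limit of its array, to 221. The Cpsf3l probe (chr4:155244851-155244910, intronic) was lower with decitabine, at 336 untreated and 276 treated. The Car11 probe (chr7:52954306-52954356, intergenic, 882 bp upstream of a start) stood at 5.13 untreated and 220 treated. Of the 10 probes, 8 were bright on both KO arrays, and those of Aqp7 and Car11 with decitabine only.

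The KO arrays had different limits of brightness, and the gain in bright probes depended on the limit used. Bright kept probes numbered 13457 without and 53045 with decitabine, 3.94 times as many. The limit is 5 times the SD of the inlier negative controls of each array, and this SD was 38.9 on the untreated and 19.3 on the treated array. The lowest bright background-subtracted signal was therefore 195 untreated and 96.3 with decitabine. Over all 2445 negative controls, outliers included, the SD was 40.2 untreated and 34.3 treated. Of these controls, 1 was bright on the untreated and 18 on the treated array. With the higher limit applied to both arrays, 13457 and 20071 kept probes passed, a ratio of 1.49. With the lower limit applied to both, 45755 and 53045 passed, a ratio of 1.16, and 32298 of the untreated probes counted here were not bright by the limit of their own array. In WT cells the limits were 108 untreated and 115 treated, so the gain there, from 13627 to 47016 bright probes, kept its size at the higher of them (12176 and 47016, a ratio of 3.86). The WT gain was smaller at a shared limit on the processed signal. Of all 520554 probes, 18953 untreated and 31020 treated passed it in WT cells, and 20026 and 39651 passed that of the KO arrays. More probes passed each of these common limits with decitabine in both lines. Below the lower KO limit this turned around. At a log2 background-subtracted signal of 6, 18.7% of all probes passed on the untreated and 17.8% on the treated KO array. Whether the higher limit of the untreated KO array hides bright probes was not tested.

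**Figure D1:**
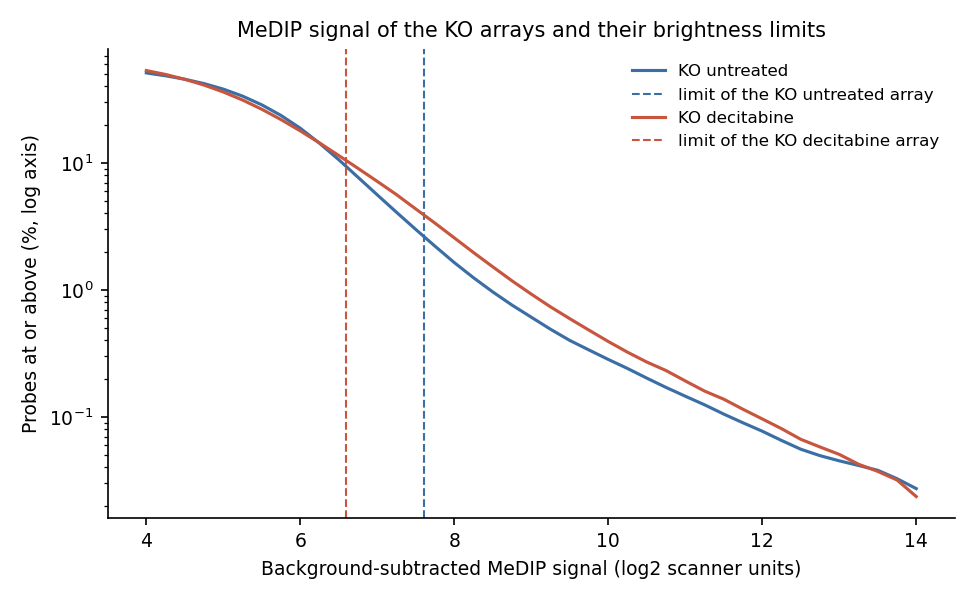
Share of all 520554 probes (y, percent, log axis) with a background-subtracted MeDIP signal at or above the value on x (log2 scanner units), for the untreated and the decitabine KO array, 1 array each. The dashed lines are the limits of brightness, 195 untreated and 96.3 with decitabine. The curves lie close to each other at the lower limit, and the decitabine curve is higher at the upper one. From 4.5 to 6 on x, below both limits, the untreated curve is slightly higher.

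Per gene, 14222 of 18365 genes (77.4%) had more bright probes with decitabine and 45 (0.245%) had fewer. At the higher shared limit 5521 genes (30.1%) had more and 829 (4.51%) fewer, and at the lower shared limit 7354 (40%) had more and 3897 (21.2%) fewer. More genes gained than lost at each limit, and the excess was smallest at the lower shared limit. By their own limits 8354 genes had a probe bright on both KO arrays, 7013 with decitabine only, 28 without only and 2859 on neither.

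Gene levels were slightly higher with decitabine relative to the array median. The median difference was 0.20 (5th to 95th percentile -0.33 to 0.72), 13709 genes (74.6%) lay above 0, and the SD over the probes of a gene had a median of 0.87. Genes were called when they differed 2-fold or more and 80% or more of their probes had that sign, which held upward for 197 genes (1.07%) and downward in 2 (0.0109%). The lower 2, named after their values were seen, were Olfr951, an olfactory receptor, and Cypt2, a gene of the testis, with 3 kept probes each and no bright probe on either array, so no size is given. Of the 197, 82 had a probe bright on both arrays, 97 with decitabine only and 18 on neither. They rested on a median of 5 kept probes, against 18 for all genes. In WT cells 191 of the 196 measured there had a difference of the same sign, with a median of 0.72, against 0.17 for all WT genes. Of these 196, 184 lay above the median WT gene. The share with the same sign in both lines was not counted for all genes or for genes of like GC, so the 191 have no base rate beside them. The MeDIP channel held surrogate values, put in by the scanner software for signals too close to background, at 59.1% of kept probes untreated and 38.1% with decitabine. The part of these surrogates in the 197 was not tested.

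The 2-fold counts and the sign of the median depend on where each array is centred. Centred on probes bright in both channels of both KO arrays, 4 genes were higher and 3721 lower, and the median difference was -0.76. With the housekeeping list as the centre there were 62 and 36, after loess 9 and 16, and by the deposited log ratio 40 and 39. The sign of a difference below is relative to the array median and depends on this centring, and the medians of gene lists are set beside that of all genes.

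At the 13139 probes bright on both KO arrays, which hold no surrogate values, the difference had a median of 0.97 (5th to 95th percentile -0.09 to 2.16), and 93.3% were above 0. Of these probes, 48% were at least 2-fold higher and 20 at least 2-fold lower. Before centring the median difference of the ratio was 0.46, and the rest came from the array medians, which were 0.38 untreated and -0.12 treated. These array medians are over all probes, and surrogate MeDIP values stood at 66.7% of untreated and 50.3% of treated spots. The centred difference is thus not free of surrogates. The background-subtracted MeDIP signal itself had a median of 298 untreated and 397 with decitabine, and was higher with decitabine at 72.7% of these probes, by a median of 0.29 in log2. The probes were thus brighter with decitabine on each scale, and the size was smaller without the scaling. Of 999 genes with 3 or more such probes, 450 (45%) were at least 2-fold higher over them, and 9 had a difference below 0.

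Probes rich in GC and CpG differed most. The median difference was -0.20 at kept probes under 35% GC, -0.05 at 35 to 45%, 0.14 at 45 to 55%, 0.50 at 55 to 65% and 1.05 above 65%. At probes bright on both arrays it went from 0.65 to 1.61 over the same range. By CpG in the probe, it was -0.02 with none, 0.07 with 1, 0.19 with 2, 0.31 with 3, 0.45 with 4 and 0.66 with 5 or more. The share of probes past the higher shared limit moved the same way. Under 35% GC it was 2.61% untreated and 3.15% with decitabine, and above 65% GC it was 8.78% and 17.5%. With 5 or more CpG the shares were 4.32% and 10.7%, a ratio of 2.47, and with none 3.63% and 4.86%, a ratio of 1.34. The input channel moved with composition too: its median difference was 0.09 under 35% GC and -0.34 above 65%, and the MeDIP channel alone went from 0.09 to 1.08. The MeDIP channel was thus higher and the input channel lower at GC-rich probes with decitabine. Across the 18365 genes, which are not independent, mean probe GC and the difference correlated at r = 0.51, with all genes sharing the same 2 arrays. Probes within 250 bp of a protein-coding start had a median of 0.27 and those 2500 to 5000 bp away -0.01. Probes in coding exons had 0.16, in introns 0.06 and between genes 0.02.

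**Figure D2:**
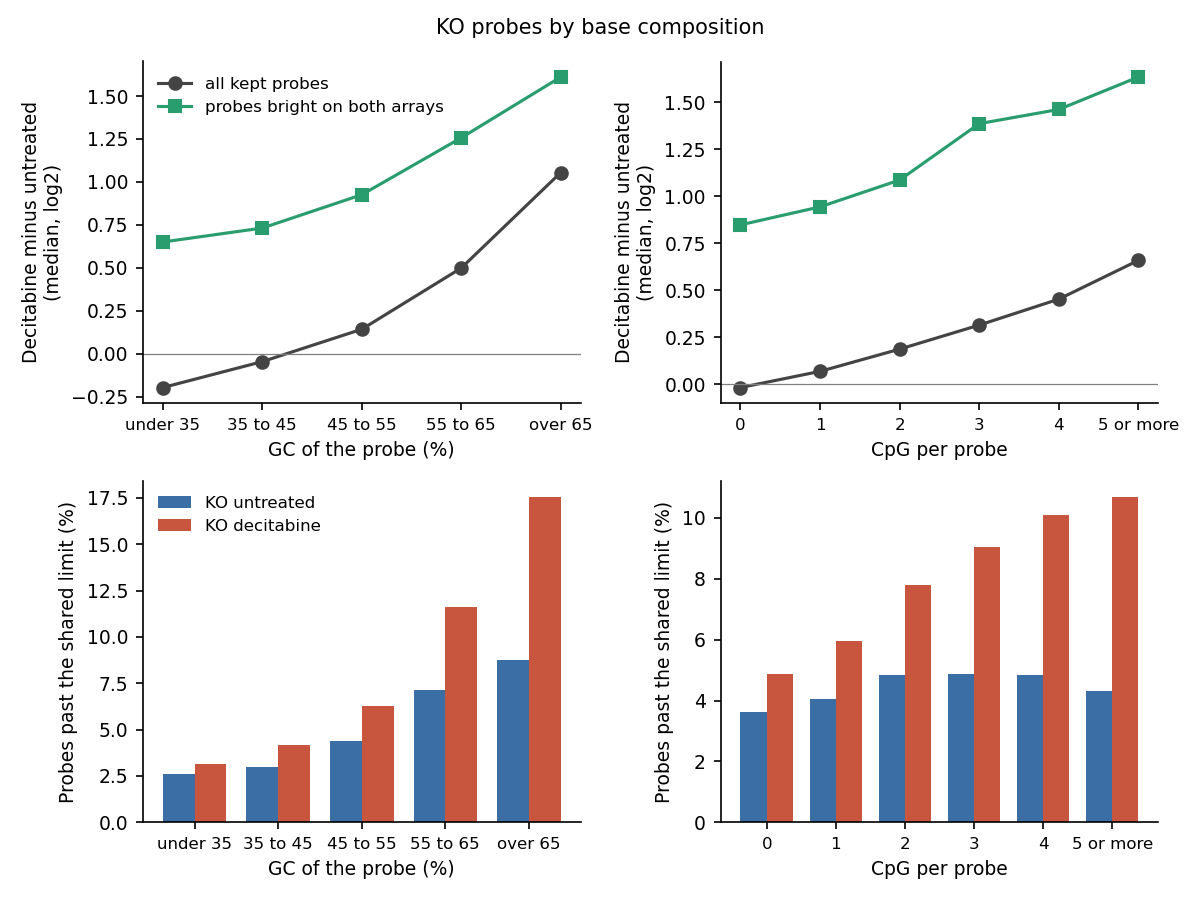
Upper panels: median decitabine minus untreated difference (log2) of all kept probes and of probes bright on both KO arrays, by GC percent and by CpG per probe. Lower panels: percent of kept probes past the higher shared limit on each KO array; the difference runs from -0.20 to 1.05 and the share with decitabine from 3.15% to 17.5% over the GC classes.

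The 197 genes were GC-rich: their median probe GC was 56.8%, against 44.3% for all genes, and their median CpG observed over expected ratio 0.70 against 0.34. When the median difference of probes of the same GC was subtracted, a step added after the data were seen, 80 genes were higher and 7 lower, and 63 of the 80 were among the 197.

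Where a gene had 3 or more probes bright on both KO arrays, the 10 largest differences were 1.03 or more, beside a median of 0.20 for all genes. Ncoa3, a nuclear receptor coactivator (chr2:165818066-165818989, 6 kept probes), had a level of -1.48 untreated and -0.03 with decitabine. Its 3 bright probes differed by 1.27, 0.52 and 1.62, and in raw signal the brightest of them, printed above, was lower with decitabine. Ccdc64, a coiled-coil protein (13 probes), stood at -1.60 and -0.22, and its bright probes differed by 2.02, 0.83 and 0.03. Bright probes of 1 gene thus differed from one another in the size of the difference.

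Traf4, an adaptor of tumour necrosis factor receptors (chr11:77976702-77979546, 8 probes), stood at -1.60 and -0.40, a difference of 1.20 ± 0.91. Its 3 bright probes were all higher, by 1.25, 1.91 and 1.97. Dld, the dihydrolipoamide dehydrogenase of mitochondrial enzyme complexes (chr12:32033763-32037375, 15 probes), stood at -0.42 and 0.72 (1.13 ± 1.21), with 3 bright probes untreated and 8 treated, but 3 and 3 past the higher shared limit. Zfp354a, a zinc finger protein (chr11:50870202-50875113, 16 probes), was higher by 1.13 ± 0.87 with all probes moving up. Slc38a1, a neutral amino acid transporter (chr15:96453270-96459609, 16 probes), was higher by 1.10 ± 0.996, and its probes went from 5 to 13 bright but from 5 to 4 past the higher shared limit. So the gain of bright probes at Dld and Slc38a1 was not seen at that limit. At a shared limit on the processed signal, Dld went from 3 to 6 probes and Slc38a1 from 5 to 7.

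Wdr6, a WD-repeat protein (chr9:108475122-108481107, 19 probes), was higher by 1.09 ± 0.77, and its 5 bright probes by 0.97, 1.27, 1.22, 1.67 and 2.63. Ppp1r3f, a regulatory subunit of protein phosphatase 1 on the X chromosome (19 probes), was higher by 1.04 ± 0.98. Foxo6, a forkhead transcription factor (36 probes), was higher by 1.04 ± 0.97, with 3 and 6 probes past the higher shared limit. Camkk1, a kinase of calmodulin-dependent kinases (23 probes), was higher by 1.03 ± 0.79, with 3 and 7. The WT differences of these 10 genes were above 0 as well, between 0.38 for Slc38a1 and 0.77 for Ncoa3, Traf4 and Wdr6.

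The genes at the low end of the same class had differences slightly below 0. Ldha, the lactate dehydrogenase of glycolysis (chr7:54095862-54103638, 29 probes), stood at -0.25 untreated and -0.51 treated (-0.26 ± 0.87). Zc3h11a, a zinc finger protein, differed by -0.15 ± 0.93, Dach2, a transcription cofactor, by -0.15 ± 0.90, Dnm3, a dynamin, by -0.13 ± 0.92, and A2bp1, a splicing factor, by -0.13 ± 0.78. Over their bright probes all 5 were higher, from 0.26 at Dnm3 to 0.98 at Ldha, so that their lower means came from their other probes. All but Ldha lay below the 0.97 of bright probes in general, with distances from it of -0.19 to -0.71.

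**Figure D3:**
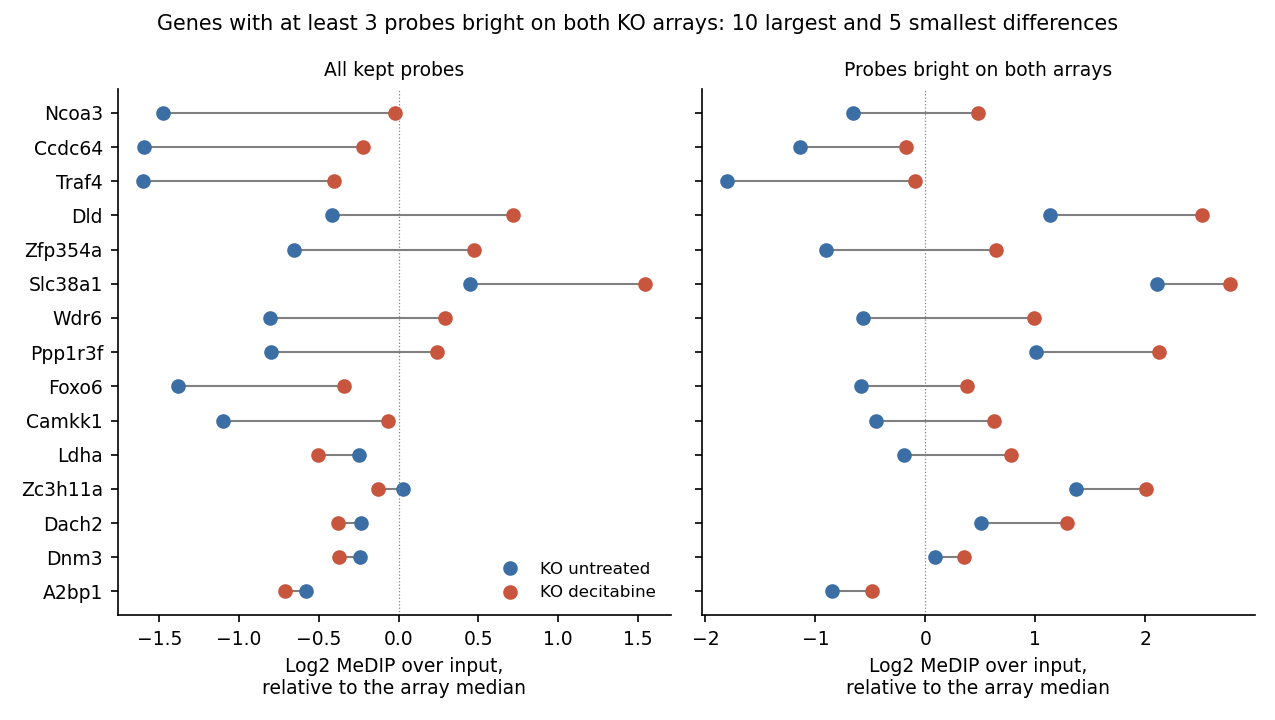
Level (x, log2 MeDIP over input relative to the array median) of each gene on the untreated and the decitabine KO array, over all kept probes (left) and over probes bright on both arrays (right), 1 array each. The upper 10 genes are higher with decitabine in both panels; the lower 5, from Ldha to A2bp1, are lower on the left and higher on the right.

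The genes with the largest gain in bright probes are long or densely probed. Rtl1, a retrotransposon-derived imprinted gene (chr12:110818570-110838810, 73 probes), went from 6 to 30 bright probes, and from 6 to 11 past the higher shared limit. Plec1, plectin, which links the cytoskeleton (148 probes), went from 17 to 37, and from 17 to 21. Espn, an actin-bundling protein, went from 3 to 22 of 88 (3 to 7), and Asb7, an ankyrin repeat and SOCS box protein, from 1 to 18 of 53 (1 to 5). Mtus1, a microtubule-associated protein, went from 5 to 21 (5 to 6), Pank1, a pantothenate kinase, from 1 to 16 (1 to 4), and Ctbp2, a transcriptional corepressor, from 6 to 21 (6 to 5). Pitpna, a phosphatidylinositol transfer protein, went from 4 to 18 (4 to 8), Lipe, hormone-sensitive lipase, from 5 to 19 (5 to 8) and Sfrs8, a splicing factor, from 4 to 18 (4 to 9). Their differences lay between 0.24 at Sfrs8 and 0.64 at Pank1, all above the median gene. At the higher shared limit Ctbp2 lost a probe and the other 9 gained 1 to 5.

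The largest losses of bright probes that met the naming rule were of 1 probe each. Agr3, a protein disulphide isomerase family member, V1rc13, a vomeronasal receptor, Abca8b, a transporter, and Cyp2c55, a cytochrome P450, went from 1 bright probe to 0, and Zfp146, a zinc finger protein, from 2 to 1. Il21, an interleukin, and Tas2r115, a taste receptor, also went from 1 to 0. Phkb, a phosphorylase kinase subunit, and Prl7a2, a placental prolactin, kept 1 bright probe on each array. The difference was -0.69 ± 0.62 over 6 probes at Phkb and -0.66 ± 0.54 over 8 at Prl7a2, while their bright probe was higher by 0.43 in each. In WT cells Phkb differed by -0.74 ± 0.68.

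Newly bright probes lay side by side at several genes. The runs were chosen for being bright with decitabine only, which largely fixes the direction of their differences, and their untreated signals are not well above background, so the values are given as measured and not as sizes of a change. Of kept neighbours at most 500 bp apart, 4915 runs of 2 or more were bright with decitabine only, of which 3890 had 2 probes and 1 had 8. That run lay in Asb7 (chr7:73822156-73823848, intron and noncoding exon), with differences of 0.35, 2.62, 1.39, 0.55, 1.79, 2.68, -0.55 and 1.32 from left to right. The run in an Aqp7 intron (chr4:40992973-40994333, 7 probes) had a mean of 1.47 ± 0.50 with all probes higher, and 6 of its probes were bright in WT cells with decitabine and 0 without. Aqp7 is a channel for water and glycerol.

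The Rtl1 run (chr12:110821099-110822205, intergenic, 7 probes) differed by 0.96 ± 0.81, and the run in Cpsf3l, an endonuclease of the Integrator complex (chr4:155245312-155246305, 7 probes), by 0.65 ± 0.35. The run upstream of Car11, a carbonic anhydrase-related protein (chr7:52954198-52954992), was 1 of 8 runs of 6 probes and was taken from them for having the largest mean difference, 1.69 ± 1.38. Of these 5 runs, 1 or 2 probes each passed the higher shared limit with decitabine and 0 without. The other probes of these runs had a signal with decitabine that lay between the limits of the 2 arrays. All probes of the Rtl1, Cpsf3l and Car11 runs were higher with decitabine, as at Aqp7. In WT cells the bright probes numbered 0 untreated and 3 treated in the Asb7 run, and 1 and 5 in the Rtl1 run. They numbered 0 and 3 in the Cpsf3l run and 0 and 4 in the Car11 run.

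**Figure D4:**
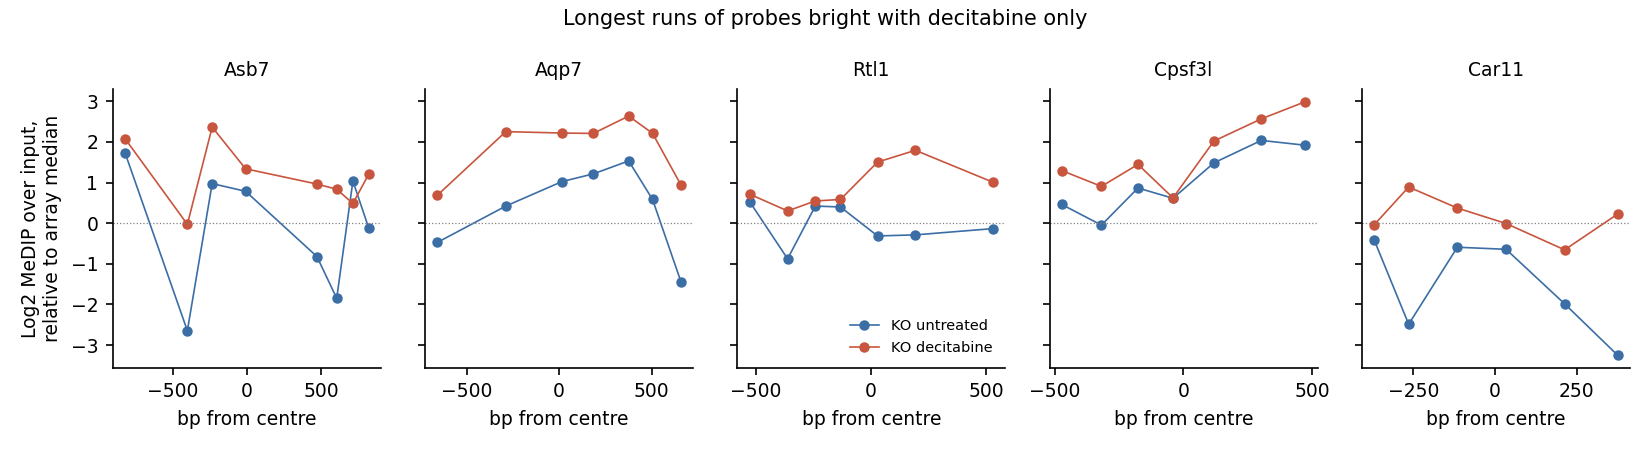
Level of each probe (y, log2 MeDIP over input relative to the array median) against its distance from the centre of the run (x, bp) on the untreated and the decitabine KO array, for the 4 runs of 7 or 8 probes and the Car11 run of 6. All probes of Aqp7, Rtl1, Cpsf3l and Car11 are higher with decitabine, and in Asb7, 1 of 8 is lower.

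The place of a list relative to the median gene was read under 14 alternative settings, of which the one over bright probes only left at most 3 members in some lists and none in others. The centrings on bright probes, housekeeping genes and kept probes shift all genes alike. They cannot change the place of a list or family, so they are no check though they are counted among the settings. Members named as the ends of a list are those among members with a probe bright on both KO arrays. The list for the writing of DNA methylation holds the enzymes that decitabine traps and other genes, such as Uhrf1, Uhrf2, Hells, Zfp57, Trim28 and Trdmt1. It had a median of 0.39 over 10 genes against 0.20 for all genes. It lay above the median gene in 13 of 13 settings that measured it, but by unequal margins. The margin was 0.077 with loess, 0.063 with normexp, 0.061 with no probe filter and 0.0057 with the median over probes, against 0.19 without these steps. Of the 10, 9 were above 0 and 0 were called, where 74.6% of all genes were above 0 and 1.07% called higher. Dnmt3l, the catalytically inactive cofactor (chr10:77497058-77515245, 27 probes, 9 exonic and 18 intronic), stood at -0.67 untreated and 0.14 with decitabine, and went from 2 to 8 bright probes, or 2 to 5 past the higher shared limit. Its 2 probes bright on both arrays were higher by 1.72 and 1.84, above the 0.97 of such probes in general. Dnmt3a, a de novo methyltransferase (30 probes), was higher by 0.47 ± 1.18 and went from 1 to 8 bright probes, or 1 to 4. Dnmt1, the maintenance enzyme (18 probes), was higher by 0.17 ± 1.04, with 2 and 4 bright probes, or 2 and 3 past the higher shared limit. Dnmt3b had 21 kept probes and no bright one on either array. Uhrf1, which brings Dnmt1 to replicated DNA, had 0 and 2 bright probes of 27, or 0 and 1 past the higher shared limit.

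Of 9 methyl-CpG readers, 6 were above 0, a lower share than of all genes, and 1 was called higher (median 0.30, above the median gene in 13 of 14 settings). This was Zbtb4, a zinc finger reader of methylated CpG (chr11:69577972-69580944, 10 probes), at -0.49 and 0.55 (1.04 ± 0.79), with 1 and 6 bright probes, or 1 and 3 past the higher shared limit. Mbd1, a methyl-CpG binding repressor, lay at the low end (-0.11 ± 0.53). Of 8 demethylation genes 7 were above 0 and 1 was called (median 0.14, but above the median gene in 9 of 14 settings). This was Tdg, the glycosylase that removes oxidised methylcytosine (chr10:82086031-82094787, 13 probes), at -0.87 and 0.13 (SD of the difference over probes 0.76), at the 2-fold limit, with 3 and 3 probes past the higher shared limit. Its 3 bright probes were higher by 2.22, 1.27 and 1.32. Tet2, which oxidises methylcytosine, differed by 0.06 ± 0.90 and Gadd45a, a stress protein, by -0.02 ± 1.08.

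The 18 genes of decitabine uptake and metabolism lay at the median gene (0.18, 14 above 0, 0 called), and above it in 4 of 14 settings. Dck, the activating kinase, had 0 and 1 bright probes of 21, but 0 and 0 past the higher shared limit. Cda, the deaminase that inactivates the drug, differed by 0.23 ± 0.74, Samhd1, a triphosphohydrolase, by 0.24 ± 1.01, and the ribonucleotide reductase subunits Rrm1 and Rrm2 by 0.54 ± 0.87 and -0.09 ± 0.65. The list for H3K4 methylation holds methyltransferases, the class of enzymes to which Mll5 is related, their partners, and the demethylases Jarid1b and Aof2. Of its 15 measured genes, 14 were above 0 (median 0.29, above the median gene in 13 of 14 settings). Those with a probe bright on both KO arrays ran from Mll1 at 0.05 ± 1.02 to Wdr5, a core subunit, at 0.63 ± 0.76. No gene of either list was called.

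Imprinted genes had a median of 0.36 over 27, with 25 above 0 and 0 called. They lay above the median gene in 14 of 14 settings, by 0.084 with GC subtracted and 0.026 with loess, against 0.16 without these steps. Their probes past the higher shared limit went from 33 to 59. Igf2r, which clears growth factor Igf2, differed by 0.62 ± 0.95, Snrpn, of the Prader-Willi domain, by 0.20 ± 1.01, and Ube3a, its ubiquitin ligase neighbour, by 0.01 ± 0.70. Germline genes had a median of 0.29 (25 of 27 above 0, above the median gene in 12 of 14 settings, not with loess), with Sycp2, a synaptonemal complex protein, at 1.14 ± 1.24 over 4 probes and Sohlh2, a germ cell transcription factor, at 0.16 ± 0.66. Dazl, a germ cell RNA-binding protein, had 0 and 3 bright probes of 12, but 0 and 0 past the higher shared limit, and 1 and 1 bright in WT cells. Housekeeping genes had 0.29 (24 of 28 above 0), above the median gene in 13 of 14 settings and not in the MeDIP channel alone. Ppia, cyclophilin A, marked their upper end at 0.63 ± 1.12.

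Blood cell genes spread on both sides of the median gene. The HOXA genes with their cofactors had a median of 0.29 (15 of 17 above 0). They lay above the median gene in 13 of 13 settings, by 0.027 at the least. Hoxa9 was at 0.35 ± 1.23, Meis1 at 0.07 ± 0.99, Meis2 at -0.00011 ± 0.91 and Pbx2 at 0.74 ± 1.26. Stem and progenitor genes had 0.26 (21 of 25, above it in 11 of 14), with Bmi1, a polycomb protein, at 0.43 ± 1.15, Gata2 at 0.22 ± 0.83 and Tek, a receptor kinase, at 0.0026 ± 0.78. Myeloid genes had 0.07 (19 of 31, above it with normexp and loess only, in 2 of 14), with Sfpi1, the transcription factor PU.1, at 0.50 ± 0.95, Cebpa at -0.03 ± 0.86 and Mpo, myeloperoxidase, at -0.05 ± 0.82. B lineage genes had 0.29 (11 of 13, above it in 13 of 13, by 0.015 at the least), with Cr2, a complement receptor, at -0.39 ± 0.37. The list has 1 called gene, Vpreb1, a surrogate light chain, which had 0 and 1 bright probes of 5 and is given no size. T and NK genes had 0.23 (16 of 22, above it in 11 of 13), and erythroid and megakaryocyte genes 0.12 (10 of 15, above it in 3 of 14), from Epor, the erythropoietin receptor, at -0.17 ± 0.43 to Slc4a1, the band 3 anion exchanger, at 0.63 ± 1.24.

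The remaining lists lay within 0.1 of the median gene, and each changed sides of it in at least 1 of 14 settings. Tumour suppressors had 0.27 (29 of 35 above 0), from Wif1, a Wnt inhibitor, at -0.04 ± 0.75 to Trp53, which went from 1 to 8 bright probes of 20 but stayed at 1 past the higher shared limit. Apoptosis genes had 0.18 (15 of 21), with Bbc3, the BH3-only protein Puma, at 0.74 ± 0.89 and Mcl1, a survival protein, at -0.14 ± 0.71. Polycomb-bound developmental genes had 0.21 (34 of 37), with Pax2 at 0.57 ± 0.85 and Evx2 at -0.07 ± 0.65. Interferon response genes had 0.10 (17 of 31), with Ifit3, an interferon-induced protein, at 0.78 ± 0.95 over 4 probes and Tlr3, a sensor of double-stranded RNA, at -0.47 ± 0.997, and genes of tissues outside the blood 0.14 (14 of 20), with Syp, synaptophysin, at 0.49 ± 0.94 and Gcg, glucagon, at -0.29 ± 0.67. None of these lists had a gene called in either direction.

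Further gene families were taken by the start of their names. Olfactory receptor genes had a median of -0.20 over 796, with 179 above 0, and vomeronasal receptor genes -0.26 over 100, with 25 above 0. In WT cells they had -0.18 and -0.26. Histone genes had -0.02 over 52 in KO cells but 0.14 in WT cells, where all genes had 0.17. MicroRNA loci had 0.10 over 118 and Zfp zinc finger genes 0.22 over 263, with 0.09 and 0.20 in WT cells. The 3 families with medians below 0 in KO cells had median probe GC of 36.4% to 38.8%, against 44.3% for all genes. They lay below the median KO gene in each setting that measured them, 14 for the olfactory receptors and 13 for the other 2. The distance from the median gene shrank in some settings. For olfactory receptors it was -0.39, but -0.18 with GC subtracted and -0.11 with loess. For vomeronasal receptors it was -0.46, but -0.25 and -0.21. For histone genes it was -0.22, but -0.02 in both of these settings. Genes called higher in these families, named after their values were seen, were V1rc15, mmu-mir-541, Zfp292, Zfp354a and Zfp82. Among them Zfp354a and Zfp82 had a probe bright on both arrays.

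**Figure D5:**
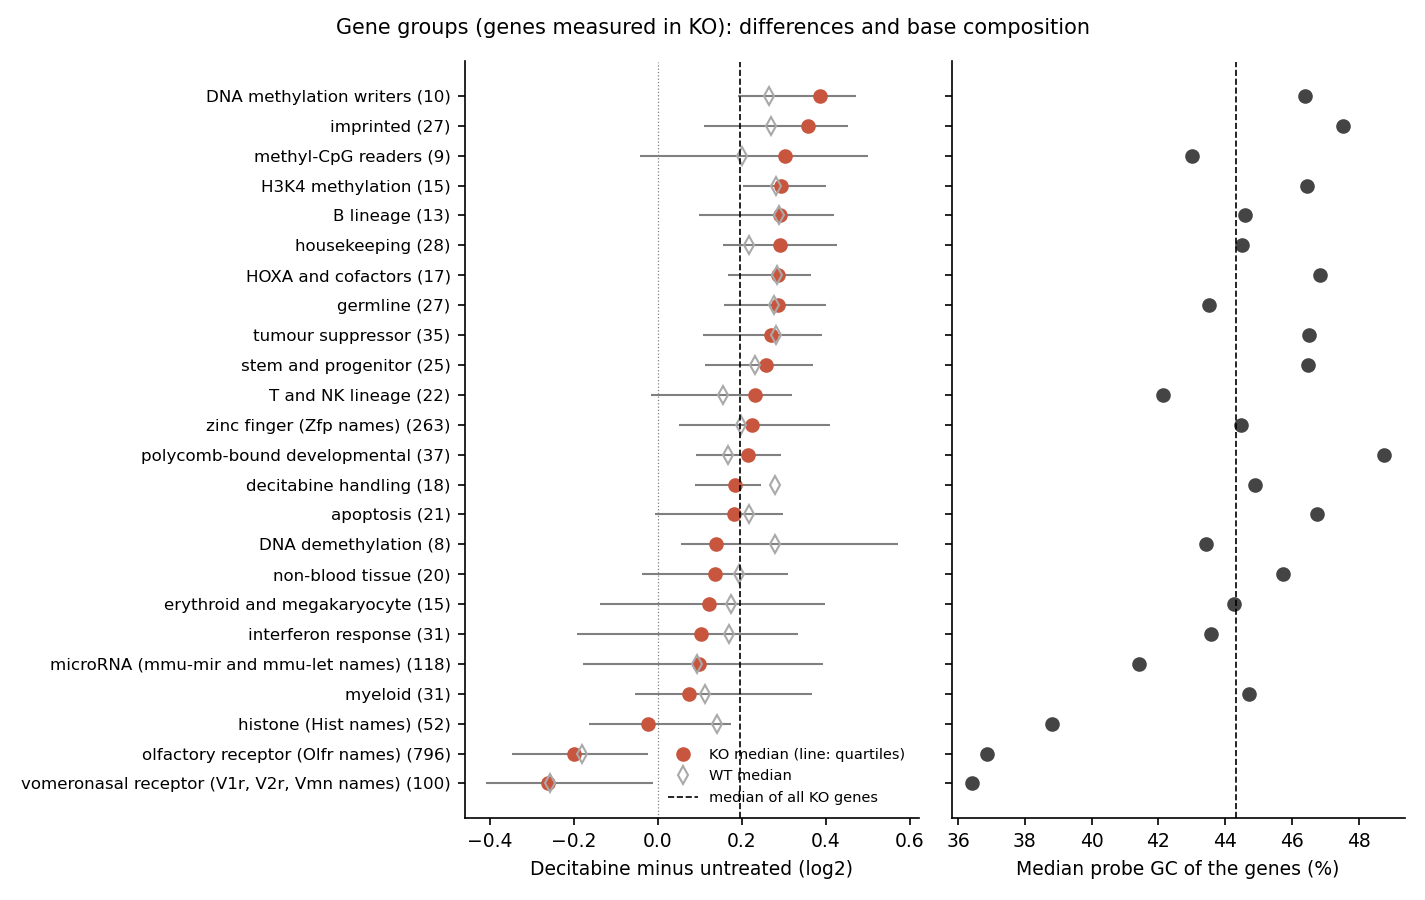
Left: median decitabine minus untreated difference (log2) of each list or family in KO cells (points, lines from the lower to the upper quartile over genes) and in WT cells (diamonds), with the median of all KO genes dashed. Right: median probe GC of the same genes; the 3 groups below 0 in KO cells, from -0.26 to -0.02, also have the lowest GC.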

How the data were processed

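MeDIP and input DNA were measured on 2-colour arrays, 1 per group, with Cy3 as MeDIP and Cy5 as input on each, per the labels, so a dye effect cannot be told apart from MeDIP against input, nor the slide from the group. Per the labels' protocols both DNAs were amplified across the genome before labelling. The authors deposited scanner intensities on a linear scale, read from the scans by Agilent Feature Extraction (version 10.5, per the submitters' processing notes), with background subtraction, surrogate values and dye normalization per the file headers. The deposited log ratio is on the log10 scale. Coordinates are mm9, the build in the file headers, and all 519521 probe sequences with a position matched that genome.

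The log2 ratio of the processed signals was centred on the median of all probes that were not controls, and averaged per gene name over kept probes. Names of position only (2220 probes) or without position (941) were left out. Background-subtracted signals gave the shared limits. Loess, quantile and normexp (offset 50) settings used limma 3.58.1 in R 4.3.3. The gene summary was tested on simulated data. With 1 array a group, array number limits the precision and no test was made.

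Named genes are the 10 largest and 5 smallest differences among genes with 3 or more probes bright on both arrays, the 10 largest gains and 5 largest losses of bright probes, the 5 largest downward differences with a probe bright untreated, the ends of each list among members with a probe bright on both arrays, some genes taken whatever their value, and the genes at the 5 longest runs. Clone, Rik and olfactory names were left out of the rule, apart from the aliases of list members. A gene is given a size only where a probe was bright on both arrays. The 19 lists held 433 symbols, of which 411 were found on the array, 8 through a synonym, and 409 were measured. Members and lists were chosen with earlier results of these data known, and the shared limits, the centring on kept probes and the GC subtraction were added after the data were seen.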

Additional observations from a re-analysis of the deposited data

Results flagged for a closer look

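Of 88 named genes, 71 had a bright probe on both arrays of both genotypes, and 12 of these had differences of opposite sign in KO and WT cells. The difference between the genotypes was not tested, and all these values but that of Cr2 in KO cells are smaller than the SD over the probes of the gene. The share of opposite signs was not counted over all genes, so the 12 have no base rate beside them. The naming rule also takes the smallest KO difference of each list, which favours values near or below 0 in KO cells. Below 0 in KO and above 0 in WT cells were Ldha (-0.26 and 0.18), Zc3h11a (-0.15 and 0.052), Dnm3 (-0.13 and 0.055), Gadd45a (-0.023 and 0.26), Rrm2 (-0.092 and 0.23), Mpo (-0.055 and 0.026), Cr2 (-0.39 and 0.081), Cd8a (-0.13 and 0.52), Epor (-0.17 and 0.089), Wif1 (-0.042 and 0.42) and Meis2 (-0.00011 and 0.0066). Wdr5 was above 0 in KO and below 0 in WT cells (0.63 and -0.14).

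Probes without a genome position, which entered no gene, were bright at 26.6% of 598 kept probes on the KO decitabine array and 8.70% on the KO untreated array. At the higher shared limit the shares were 11.7% and 8.70%.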

How the results depend on the processing

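The direction of the median gene and the counts of 2-fold genes rest on centring and on the 1 array per group. The median difference of 0.20 was 0.15 with normexp, 0.21 with the filter on 4 arrays, 0.20 with at least 10 probes and 0.17 with GC subtracted. It moved to 0.081 with quantile normalization, 0.060 with no probe filter, 0.069 with the median over probes, 0.091 centred on kept probes, 0.49 in the MeDIP channel alone and 0.96 over bright probes only. It turned to -0.094 from the deposited log ratio, -0.093 with loess, -0.76 centred on bright probes and -0.056 centred on housekeeping genes. The cause was not tested.

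The counts higher and lower, 197 and 2, became 63 and 4 with normexp, 40 and 39 from the deposited log ratio, 9 and 16 with loess, 109 and 10 with quantile normalization, 4 and 3721 centred on bright probes, 62 and 36 centred on housekeeping genes and 104 and 8 with no probe filter. They were 432 and 0 over bright probes only (999 genes), 211 and 5 with the median over probes, 33 and 0 with at least 10 probes, 495 and 0 in the MeDIP channel alone, 122 and 8 centred on kept probes, 80 and 7 with GC subtracted and 209 and 2 with the filter on 4 arrays. Upward calls made up 99.1% of calls with the filter on 4 arrays, 97.7% with the median over probes, between 91.6% and 94.0% with normexp, quantile normalization, no filter, kept-probe centring and GC subtraction, 63.3% centred on housekeeping genes, 50.6% from the deposited log ratio and 36% with loess.

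The 14222 genes with more bright probes stayed within 1.5 times under the other filters and a processed-signal limit (10479 to 16187), and were 5521 and 7354 at the higher and lower shared limits. All 12 named genes called higher stayed above 0 wherever measured, but fewer stayed called: 0 with normexp, with loess and centred on bright probes, 2 by the deposited log ratio and on housekeeping genes, 3 with no filter, 4 with GC subtracted, 5 centred on kept probes, 7 with quantile normalization, 8 of 11 over bright probes only, 10 with the median over probes and in the MeDIP channel alone, 10 of 10 with at least 10 probes and 11 with the filter on 4 arrays. Staying above 0 was fixed in advance for the centrings on bright probes, housekeeping genes and kept probes. These moved all genes alike, by -0.95, -0.25 and -0.11, and the 12 genes were chosen for a difference of at least 1. No paired analysis was possible because each group has 1 array.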
